A study of Mus musculus with 9 samples.

Results

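The TNF superfamily ligands and receptors described here are 9 mouse genes chosen by symbol: the ligands Tnf, Tnfsf10, Tnfsf12, Tnfsf13 and Tnfsf13b and the receptors Tnfrsf1a, Tnfrsf1b, Tnfrsf11a and Tnfrsf21. A gene was read where a probe set of the array is annotated to it alone, which held for 7 of the 9 and for 19937 genes in all. Each of the 7 has a single such probe set. Tnfsf12 and Tnfsf13 share 1 probe set with their read-through gene Tnfsfm13, so neither could be read by itself and the shared probe set is given without assigning it to a gene.

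The cells were sorted from wild type C57BL/6 mice that had been kept free of specific pathogens. There were 3 arrays of Ly6C-high microglia, which the labels call MgSCs, 3 of Ly6C-low microglia, which they call bulk microglia cells, and 3 of spleen monocytes. Perfused brains were dissociated with collagenase and DNase I, their leukocytes were concentrated over Percoll, and the sort used stains for CD45, CD11b, EMR1, MHC II and Ly6C. The labels give neither age nor sex and do not say that replicates are different animals, so the p-values measure the spread between these arrays, which may be technical.

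TNF superfamily ligands are made as trimeric membrane proteins, many of which are also released by proteases, and they bind receptors that either carry an intracellular death domain or recruit TRAF adaptors directly. The receptors switch on NF-kB and MAP kinase signalling or, where a caspase-8 complex forms, cell death. In the brain, TNF from microglia is known as an early inflammatory cytokine and as a factor that adjusts synaptic strength, and brain endothelium responds to it with adhesion molecules.

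The groups differed as whole populations, which bears on every gene below. Of 9 measured homeostatic microglia markers all 9 were lower in Ly6C-high than in Ly6C-low microglia, and 6 of the 9 were higher in Ly6C-high microglia than in spleen monocytes. The mean log2 level of that list was 7.53, 7.51 and 8.28 in Ly6C-high replicates 1 to 3, 10.32 to 10.89 in the Ly6C-low arrays and 6.30 to 6.37 in those of monocytes. All 10 brain endothelium markers were higher in Ly6C-high than in Ly6C-low microglia, with list means of 10.37 to 10.91 in Ly6C-high arrays, 7.72, 6.96 and 6.07 in Ly6C-low replicates 1 to 3 and 6.07 to 6.22 in monocytes. The classical monocyte list stood at 9.53 in Ly6C-high replicate 2 and at 7.49 and 6.62 in replicates 1 and 3, and the neutrophil list at 9.46 in Ly6C-low replicate 3 and at 6.86 and 7.13 in replicates 1 and 2. In monocytes the classical monocyte list stood at 10.13 to 10.43 and the neutrophil list at 10.08 to 10.59. Of 8 measured classical monocyte markers 2 were higher and 0 lower in Ly6C-high than in Ly6C-low microglia. Of 10 neutrophil markers 2 were lower and 0 higher. The Ly6C-high arrays were also less alike, with correlations between arrays of 0.872 to 0.924, against 0.967 to 0.980 within Ly6C-low microglia and 0.978 to 0.983 within monocytes. Interquartile ranges of log2 values were 2.24 to 2.73 in Ly6C-high, 2.70 to 2.86 in Ly6C-low and 2.89 to 2.91 in monocyte arrays. Array weights estimated by limma were 0.14, 0.42 and 1 in Ly6C-high replicates 1 to 3 and 0.57 to 2.28 in the others. In sorted bulk RNA, fewer cells of a type and less RNA per cell cannot be told apart.

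The first comparison asks how the TNF superfamily genes of Ly6C-high microglia stand against those of bulk microglia. Of the 7 genes, 4 were lower in Ly6C-high microglia and none was higher: the cytokine Tnf, the B cell survival ligand Tnfsf13b and the receptors Tnfrsf11a and Tnfrsf21. The median log2 fold change of the 7 was -1.29, against 0.05 over all genes. Across all genes tested 15.4% passed an adjusted p of 0.05 (limma, Benjamini-Hochberg over all genes), 4.49% higher in the Ly6C-high cells and the others, 2185 of 19937 genes, lower. That made 29.1% of the calls higher, against 40.8% under quantile normalization and 40.8% under cyclic loess, and 4 members were called lower under each. The Ly6C-high arrays all lay above the Ly6C-low arrays for 1 member and all below for 5, while 30.1% of all genes had no overlap, 12.9% above and 17.2% below. With the arrays of the high monocyte list (Ly6C-high replicate 2) and the high neutrophil list (Ly6C-low replicate 3) left out, 5 members were called.

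The second comparison sets Ly6C-high microglia against spleen monocytes. Here 4 of the 7 genes were lower, Tnfrsf1a, Tnfrsf1b, Tnfsf13b and Tnfrsf21, and 1 was higher, the death ligand Tnfsf10, while 21.5% of all genes passed, 6.88% higher and 14.6% lower. The median was -0.53, against 0.09 over all genes. The higher share of all calls was 32%, or 45.1% under quantile normalization and 43.5% under cyclic loess, and under these 0 members were called higher and 3 lower. The arrays did not overlap for 5 members, 1 higher and 4 lower, and for 45.9% of all genes, 24.1% higher and 21.9% lower. The count of 5 called members was 2 without Ly6C-high replicate 3, Ly6C-low replicate 2 or 3 or monocyte replicate 1 or 2, and 3 without Ly6C-high replicate 2, Ly6C-low replicate 1 or monocyte replicate 3. In the third comparison, of Ly6C-low microglia with monocytes, 2 of the 7 were higher, Tnf and Tnfrsf11a, and 0 lower, while 14.5% of all genes passed, 6.80% higher and 7.71% lower. The median was 0.33, against 0.05 over all genes. Arrays did not overlap for 4 members, 2 higher and 2 lower, and for 42.3% of all genes, 23.2% higher and 19.1% lower. The 3 comparisons share arrays, since each group enters 2 of them.

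**Figure D1:**
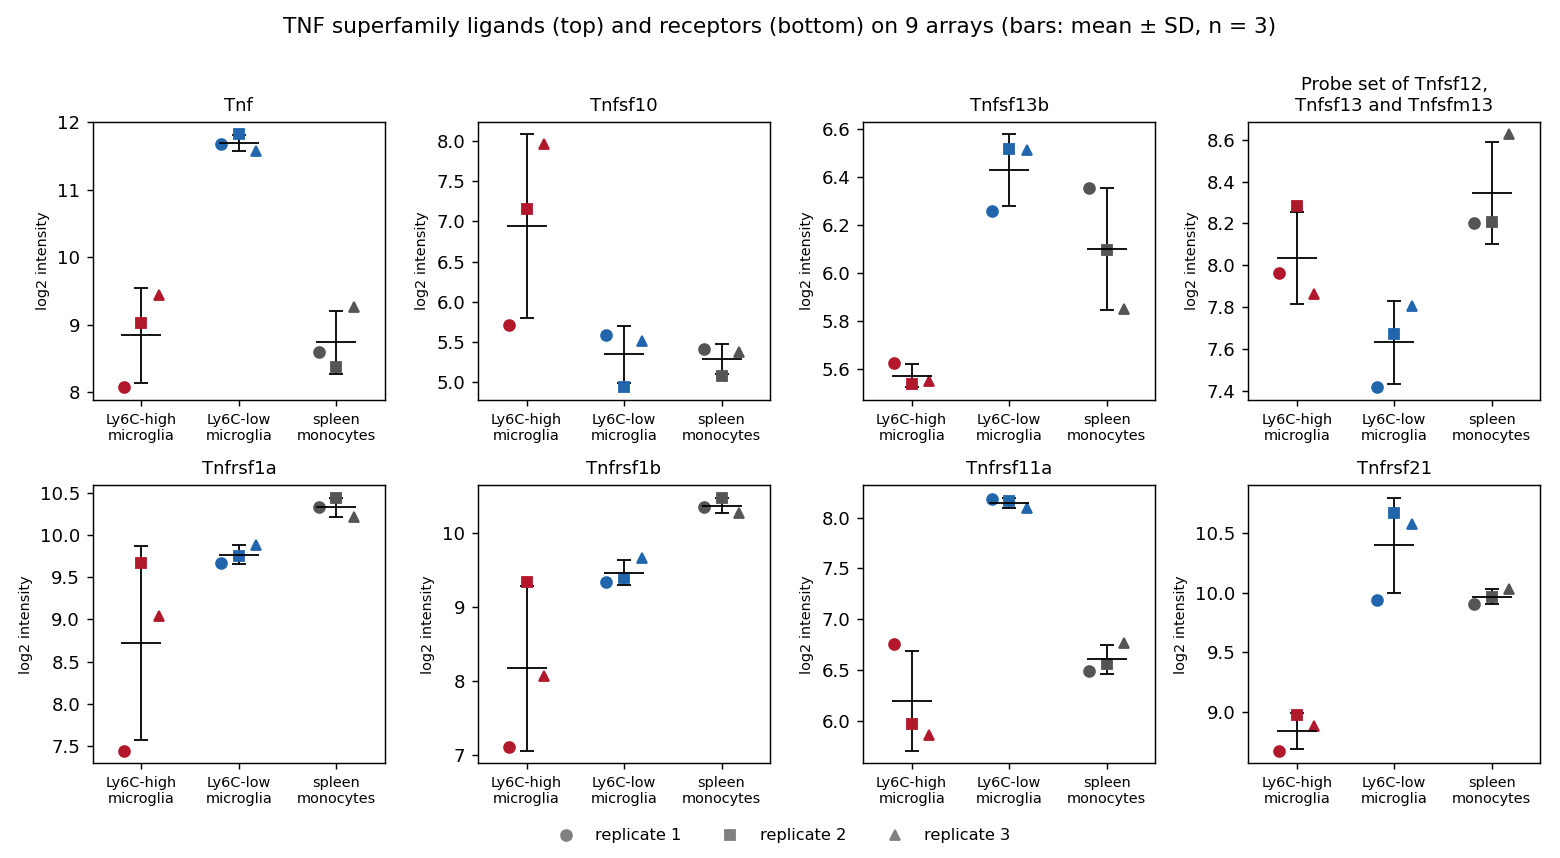
Log2 intensity of the 7 genes and of the shared probe set (y axes, each with its own range) in Ly6C-high microglia, Ly6C-low microglia and spleen monocytes, with a point per array and mean ± SD (n = 3). Tnf and Tnfrsf11a stand apart in the Ly6C-low arrays, while Tnfrsf1a, Tnfrsf1b and Tnfsf10 are spread widest in the Ly6C-high arrays.

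Tnf, the founding cytokine of the family and a product of activated macrophages and microglia, was the member with the largest difference between the microglia groups. Its log2 level was 8.07, 9.02 and 9.44 in Ly6C-high replicates 1 to 3, against 11.69, 11.82 and 11.58 in Ly6C-low microglia and 8.59, 8.37 and 9.26 in monocytes. Every Ly6C-low array lay above every array of the other groups, and the Ly6C-high and monocyte arrays overlapped. Ly6C-high microglia averaged 8.85 ± 0.70 and Ly6C-low microglia 11.70 ± 0.12 (SD, n = 3 each), a log2 fold change of -2.85 ± 0.35 (SE), or 7.21-fold lower (limma adjusted p = 0.000914). Ly6C-low microglia exceeded monocytes, at 8.74 ± 0.46, by 2.95 ± 0.35 on the log2 scale (7.74-fold, adjusted p = 0.000703). Between Ly6C-high microglia and monocytes the difference was 0.10, with a 95% confidence interval from -0.69 to 0.90 (adjusted p = 0.822). The order of the groups for Tnf was thus Ly6C-low microglia above the other 2, whose order was not resolved and changed sign without Ly6C-high replicate 3 (-0.19) or monocyte replicate 2 (-0.08).

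Tnfsf10 encodes TRAIL, a ligand that can trigger apoptosis through death receptors and that is known to be induced by interferon. Its level was 5.71, 7.15 and 7.96 in Ly6C-high replicates 1 to 3, against 5.58, 4.94 and 5.51 in Ly6C-low microglia and 5.41, 5.08 and 5.38 in monocytes. Every Ly6C-high array lay above all the others, replicate 1 by little and replicate 3 by most. The probe set was dim: apart from Ly6C-high replicates 2 and 3, every array lay below 6.13, the median of the gene means. The mean was 6.94 ± 1.14 in Ly6C-high microglia, against 5.34 ± 0.36 in Ly6C-low microglia and 5.29 ± 0.18 in monocytes (SD, n = 3 each). Ly6C-high microglia were higher than monocytes by 1.65 ± 0.49 (3.14-fold, limma adjusted p = 0.0434), and the difference from Ly6C-low microglia, 1.60 ± 0.49 with a 95% interval of 0.49 to 2.71, did not pass (adjusted p = 0.0616). The call against monocytes was lost in 16 of 21 alternative settings, among them leaving out Ly6C-high replicate 2 (1.55, adjusted p = 0.0741) or 3 (1.14, 0.0814), any one Ly6C-low array (1.65, 0.0598 to 0.0666) or any one monocyte array (1.55 to 1.71, 0.0970 to 0.129). Without Ly6C-high replicate 1 the differences were 2.27 against monocytes (adjusted p = 0.00203) and 2.21 against Ly6C-low microglia (0.00242). The difference from Ly6C-low microglia also passed with array weights (2.28, 0.00264), with an intensity trend and robust variances (1.60, 0.0493) and with dim genes left out (1.60, 0.0345). The mean of the brain endothelium markers was 10.37, 10.60 and 10.91 and that of the pericyte and smooth muscle markers 7.53, 7.41 and 8.68 in the same 3 Ly6C-high arrays, and their part in the Tnfsf10 result was not tested. Ly6C-low microglia and monocytes differed by 0.06, with an interval of -1.05 to 1.17.

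Tnfsf13b encodes BAFF, the factor on which B cell survival depends and a product of myeloid cells. Its probe set was dim, at 5.63, 5.54 and 5.55 in Ly6C-high microglia, 6.26, 6.52 and 6.51 in the Ly6C-low arrays and 6.35, 6.10 and 5.85 in monocytes. The Ly6C-high arrays lay close together and below all the others, while the Ly6C-low and monocyte arrays overlapped. The level in Ly6C-high microglia was lower than in Ly6C-low microglia by a log2 fold change of -0.86 ± 0.15 (1.81-fold lower, limma adjusted p = 0.00457) and lower than in monocytes by -0.53 ± 0.15 (1.44-fold lower, adjusted p = 0.0334). The call against monocytes was lost in 11 of 21 alternatives, including those without Ly6C-high replicate 1, 2 or 3 (-0.55 to -0.51, adjusted p = 0.0502 to 0.0681), Ly6C-low replicate 2 or 3 (-0.53, 0.0532 and 0.0533) and monocyte replicate 1 or 2 (-0.40 and -0.53, 0.112 and 0.0957). With the title's replicate number as a block its adjusted p was 0.0587. Ly6C-low microglia against monocytes gave 0.33, with an interval of -0.001 to 0.66 (adjusted p = 0.197).

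Tnfsf12 encodes TWEAK, a ligand of the receptor Fn14, and Tnfsf13 encodes APRIL, a second B cell and plasma cell ligand. The genes are neighbours in RefSeq, with the read-through gene Tnfsfm13 at the same place, and their shared probe set cannot tell them apart. It stood at 7.96, 8.28 and 7.86 in Ly6C-high microglia, 7.42, 7.67 and 7.81 in the Ly6C-low arrays and 8.20, 8.21 and 8.63 in monocytes. Ly6C-low arrays were the lowest, and the Ly6C-high arrays overlapped with the monocytes. Fitted over all 34760 probe sets, of which 9.56% passed for this comparison, Ly6C-low microglia were lower than monocytes by -0.71 ± 0.18 (1.64-fold lower, limma adjusted p = 0.0432). That call was lost in 11 of 17 alternatives, among them leaving out any one Ly6C-low or monocyte array (-0.80 to -0.57, adjusted p = 0.0712 to 0.138). Neither Ly6C-high microglia against Ly6C-low microglia (0.41, interval -0.005 to 0.82, adjusted p = 0.214) nor Ly6C-high microglia against monocytes (-0.31, interval -0.72 to 0.10, adjusted p = 0.252) passed.

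**Figure D2:**
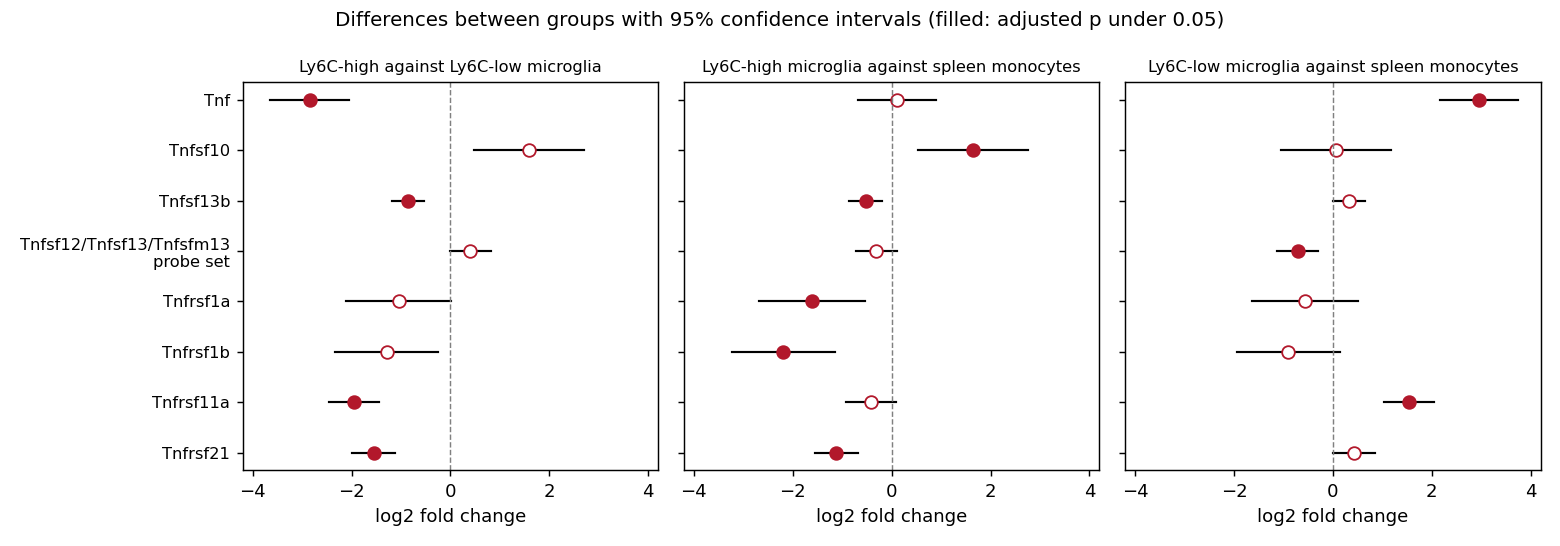
Log2 fold changes (x axis) of the 7 genes and the shared probe set in the 3 comparisons, with 95% confidence intervals from the limma fit. Filled points passed an adjusted p of 0.05, and the intervals of Tnfrsf1a, Tnfrsf1b and Tnfsf10 are the widest.

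The receptors of TNF itself followed another pattern from the ligand. Tnfrsf1a encodes TNFR1, a death domain receptor found on most cells, and Tnfrsf1b encodes TNFR2, which lacks a death domain and is known from immune cells, microglia and endothelium. Tnfrsf1a was at 7.44, 9.67 and 9.04 in Ly6C-high microglia, against 9.66, 9.75 and 9.88 in the Ly6C-low arrays and 10.34, 10.43 and 10.21 in monocytes. Tnfrsf1b was at 7.12, 9.33 and 8.06 in Ly6C-high microglia, against 9.34, 9.39 and 9.66 in the Ly6C-low arrays and 10.35, 10.47 and 10.27 in monocytes. Both were lowest in Ly6C-high replicate 1. In replicate 2 Tnfrsf1a lay within the range of the Ly6C-low arrays, and Tnfrsf1b, at 9.329, lay just below their lowest value of 9.335. Only by that margin did the arrays of the microglia groups not overlap for Tnfrsf1b. Monocytes lay above all other arrays for both genes.

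Ly6C-high microglia averaged 8.72 ± 1.15 for Tnfrsf1a, against 10.33 ± 0.11 in monocytes (log2 fold change -1.61 ± 0.47, 3.05-fold lower, limma adjusted p = 0.0415). For Tnfrsf1b they averaged 8.17 ± 1.11, against 10.36 ± 0.10 in monocytes (-2.19 ± 0.45, 4.56-fold lower, adjusted p = 0.0109). The Tnfrsf1b call held in all 21 alternatives, and the Tnfrsf1a call was lost in 12, among them without Ly6C-high replicate 3 (-1.77, adjusted p = 0.0558), any one Ly6C-low array (-1.61, 0.0613 to 0.0656) or any one monocyte array (-1.67 to -1.55, 0.0915 to 0.118). Without Ly6C-high replicate 1 the Tnfrsf1a difference was -0.97 (adjusted p = 0.0113). Against Ly6C-low microglia, at 9.77 ± 0.11 and 9.46 ± 0.17, neither passed: Tnfrsf1a gave -1.05 with an interval of -2.12 to 0.02 (adjusted p = 0.185), and Tnfrsf1b -1.29 with an interval of -2.33 to -0.25 (0.0985). Both differences moved with single Ly6C-high arrays: without replicate 2 Tnfrsf1a was lower by -1.52 (adjusted p = 0.0324) and Tnfrsf1b by -1.87 (0.00234), and without replicate 1 they were -0.41 (0.204) and -0.77 (0.184). Tnfrsf1b also passed with array weights (-1.18, 0.0235). The classical monocyte list mean was 7.49, 9.53 and 6.62 in Ly6C-high replicates 1 to 3, and its part in these differences was not tested. Both genes were higher in replicate 3 than in replicate 1, the reverse of that list. Ly6C-low microglia against monocytes gave -0.56 (interval -1.63 to 0.51) for Tnfrsf1a and -0.90 (-1.94 to 0.14) for Tnfrsf1b, with adjusted p of 0.548 and 0.269. With only those 6 arrays in the fit, which leaves out the spread of the Ly6C-high arrays, the same differences had adjusted p of 0.00822 and 0.00242. With array weights both passed (-0.54, 0.0422, and -0.87, 0.0102), and Tnfrsf1b also passed without Ly6C-high replicate 2 (adjusted p = 0.0341).

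Over the 9 arrays the levels of Tnfrsf1a and Tnfrsf1b had a Pearson r of 0.97, the highest among the 21 pairs of the 7 genes, and Tnf had an r of 0.22 with Tnfrsf1a and 0.12 with Tnfrsf1b. These coefficients describe arrays of 3 cell populations that share group means and an uneven Ly6C-high group, so they carry no test.

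Tnfrsf11a encodes RANK, the receptor of RANK ligand, best known for osteoclast formation from myeloid precursors. Its level was 6.76, 5.97 and 5.86 in Ly6C-high microglia, against 8.18, 8.16 and 8.09 in the Ly6C-low arrays and 6.49, 6.56 and 6.77 in monocytes. As for Tnf, the Ly6C-low arrays were closely spaced and above all others, and the remaining arrays overlapped. Ly6C-high microglia averaged 6.19 ± 0.49, against a mean of 8.15 ± 0.05 in the Ly6C-low cells (log2 fold change -1.95 ± 0.22, 3.87-fold lower, limma adjusted p = 0.000615). Ly6C-low microglia were higher than monocytes, at 6.61 ± 0.15, by 1.54 ± 0.22 (2.91-fold, adjusted p = 0.00199). Between Ly6C-high microglia and monocytes the difference was -0.41 (interval -0.92 to 0.09, adjusted p = 0.195), which passed without Ly6C-high replicate 1 (-0.69, adjusted p = 0.00449) and with array weights (-0.62, 0.0185).

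Tnfrsf21 encodes death receptor 6, a death domain receptor studied in neurons, T cells and brain vessels. It stood at 8.68, 8.98 and 8.88 in Ly6C-high microglia, against 9.94, 10.67 and 10.58 in the Ly6C-low arrays and 9.91, 9.96 and 10.03 in monocytes. All Ly6C-high arrays were lower than all others, and Ly6C-low replicate 1 lay within the monocyte range. Ly6C-high microglia were lower than Ly6C-low microglia by -1.55 ± 0.19 (2.93-fold lower, limma adjusted p = 0.000939) and lower than monocytes by -1.12 ± 0.19 (2.17-fold lower, adjusted p = 0.00423). Both calls held in all 21 alternatives. The difference from monocytes was smaller under quantile normalization (-0.70, limma adjusted p = 0.0109) and cyclic loess (-0.56, 0.0359). That from Ly6C-low microglia was -1.32 and -1.24 under the same settings. The difference between Ly6C-low microglia and monocytes, 0.43 with an interval of -0.005 to 0.86, did not pass (adjusted p = 0.200), and it passed in 4 of 21 alternatives: without Ly6C-low replicate 1 (0.66, 0.0159), under quantile normalization (0.62, 0.0193), under cyclic loess (0.68, 0.0177) and with array weights (0.59, 0.00625).

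Printed are the promoters of Tnf, Tnfrsf11a and Tnfsf13b, from among the 4 members called lower in Ly6C-high than in Ly6C-low microglia. Each is the 250 bases before the gene's start from RefSeq (build GRCm38.p6), read 5′ to 3′ on the gene's strand, with matches to the motifs searched in capitals. The windows are chr17:35202008-35202257 on the minus strand for Tnf, chr1:105780473-105780722 on the plus strand for Tnfrsf11a and, as the second of 2 starts, chr8:10006383-10006632 on the plus strand for Tnfsf13b.
Tnf: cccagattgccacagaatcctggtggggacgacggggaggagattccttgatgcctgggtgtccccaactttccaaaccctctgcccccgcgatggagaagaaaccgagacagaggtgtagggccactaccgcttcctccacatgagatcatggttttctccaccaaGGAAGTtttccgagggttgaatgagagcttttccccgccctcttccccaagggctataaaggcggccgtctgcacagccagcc
Tnfrsf11a: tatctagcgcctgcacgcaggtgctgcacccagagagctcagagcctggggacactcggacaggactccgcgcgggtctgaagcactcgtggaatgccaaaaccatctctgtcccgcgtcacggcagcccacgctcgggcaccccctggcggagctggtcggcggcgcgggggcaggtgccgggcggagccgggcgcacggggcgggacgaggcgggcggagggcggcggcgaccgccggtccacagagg
Tnfsf13b: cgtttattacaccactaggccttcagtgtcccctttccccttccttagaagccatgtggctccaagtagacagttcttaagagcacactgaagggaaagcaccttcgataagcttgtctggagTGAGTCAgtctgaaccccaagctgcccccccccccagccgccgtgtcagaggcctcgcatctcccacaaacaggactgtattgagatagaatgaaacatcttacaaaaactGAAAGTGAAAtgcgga
On both strands the search covered the NF-kB site known as the kB motif, TGANTCA (AP-1), the core of interferon response elements and GGAAGT (an ETS site). RefSeq windows were found for 8 of the 9 members, 9 windows in all. Tnf held 1 GGAAGT, at position -83 from the start, which 19.7% of 32851 RefSeq windows also hold at some position. The printed Tnfsf13b window held the AP-1 match TGAGTCA and the interferon core match GAAAGTGAAA, motifs found in 6.75% and 2.98% of windows, and the window of its first start held 0 matches to the 4 motifs. Tnfrsf1b held 1 interferon core, on the strand opposite to the gene, and Tnfsf13 held 1 AP-1 motif. The window of Tnfrsf21, the other member called lower in that comparison of microglia, is not printed and held 0 matches to the 4 motifs. No kB motif, found in 7.25% of windows, lay in any of the 9. Bases outside these windows and other forms of the site were not searched, so kB sites elsewhere are not excluded. Matches are descriptions of these letters only.

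Binding partners of the members were read from the lists of other ligands and receptors. Tnfrsf10b, the mouse TRAIL receptor with a death domain, was at 6.35, 6.99 and 6.79 in Ly6C-high microglia, against 5.46, 5.19 and 5.25 in the Ly6C-low arrays and 5.58, 5.45 and 5.98 in monocytes, so the Ly6C-high arrays were highest for this receptor as for its ligand Tnfsf10. It was higher in Ly6C-high than in Ly6C-low microglia by 1.41 ± 0.20 (2.66-fold, limma adjusted p = 0.00178) and than in monocytes by 1.04 ± 0.20 (2.06-fold, adjusted p = 0.00717). Tnfrsf17, which encodes BCMA, a receptor of BAFF and APRIL best known from plasma cells, was at 5.08, 4.89 and 4.68 in Ly6C-high microglia, 6.26, 6.40 and 6.40 in the Ly6C-low arrays and 4.74, 4.77 and 4.71 in monocytes. The Ly6C-low arrays stood above the rest, by 3.06-fold over monocytes (1.61 ± 0.12, adjusted p = 5.98e-05), and Ly6C-high microglia were lower than Ly6C-low microglia by -1.47 ± 0.12 (adjusted p = 0.000123). Tnfrsf17 was dim: it averaged 4.88 in Ly6C-high microglia, 6.35 in the Ly6C-low arrays and 4.74 in monocytes. The median of the gene means was 6.13. Tnfrsf13c, the BAFF receptor of B cells, was lower than in monocytes in both Ly6C-high (-1.98 ± 0.26, adjusted p = 0.0012) and Ly6C-low microglia (-2.08 ± 0.26, 0.001). The B cell markers had list means of 5.98 to 6.21 in Ly6C-high microglia, 5.43 to 5.85 in the Ly6C-low arrays and 8.53 to 9.21 in monocytes, and their part in the Tnfrsf13c result was not tested.

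Tnfrsf12a, which encodes the TWEAK receptor Fn14, was highest in Ly6C-low microglia, at 8.71, 8.87 and 9.42, against 7.73, 7.01 and 7.70 in monocytes (log2 fold change 1.51 ± 0.25, limma adjusted p = 0.00419). Ly6C-high microglia, at 8.55, 8.18 and 8.18, were higher than monocytes by 0.83 ± 0.25 (adjusted p = 0.0471) and not called against Ly6C-low microglia (-0.69, interval -1.26 to -0.12, adjusted p = 0.108). The RANK ligand gene Tnfsf11 and the decoy receptor gene Tnfrsf11b were called in none of the 3 comparisons. Across the groups Tnfsf11 differed by -0.15 to 0.08 and Tnfrsf11b by 0.001 to 0.15 on the log2 scale. Tnfrsf10b and Tnfrsf12a against monocytes in Ly6C-high microglia, Tnfsf11 and Tnfrsf11b were named for their role after their values were seen.

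Of 13 remaining ligands of the superfamily 1 was called between the microglia groups, beside 15.4% of all genes. Tnfsf9, the ligand of 4-1BB, was lower in Ly6C-high than in Ly6C-low microglia (-0.83 ± 0.21, limma adjusted p = 0.0309), a call lost in 10 of 20 alternatives, among them without Ly6C-high replicate 3, Ly6C-low replicate 2 or 3, or any one monocyte array, each of which left 0 of 13 called. Tnfsf9 was dim, at 5.18, 4.83 and 4.99 in Ly6C-high microglia and 5.31, 6.14 and 6.04 in the Ly6C-low arrays. The list's median was 0.10, against 0.05 over all genes. Lymphotoxin beta (Ltb), Fas ligand (Fasl) and Tnfsf14, which encodes LIGHT, were lower than in monocytes both in Ly6C-high microglia (-2.12, -1.18 and -0.80) and in Ly6C-low microglia (-2.12, -1.28 and -0.99). The Fasl call was lost in 5 of 20 alternatives for Ly6C-high microglia, among them without Ly6C-high replicate 1 or 3, and in 4 of 20 for Ly6C-low microglia, among them without Ly6C-low replicate 1, 2 or 3. Without monocyte replicate 3 the Fasl difference was -0.76 in Ly6C-high and -0.86 in Ly6C-low microglia, both still called. Fasl and Tnfsf14 were dim in every group. Fasl averaged 4.39 in Ly6C-high microglia, 4.29 in the Ly6C-low arrays and 5.57 in monocytes, and Tnfsf14 averaged 4.92, 4.72 and 5.72. All these means lay below 6.13, the median of the gene means. Ltb, Fasl and Tnfsf14 are known from lymphocytes. The T and NK cell markers had list means of 5.01 to 5.39 in Ly6C-high microglia, 4.97 to 5.16 in the Ly6C-low arrays and 7.40 to 8.22 in monocytes, and their part in these differences was not tested.

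Of 24 further receptors 3 were higher and 3 lower in Ly6C-high than in Ly6C-low microglia (median 0.06), beside 15.4% of all genes called in either direction. Tnfrsf19, also called TROY, an orphan receptor known from neural progenitors and from vessels that form the blood-brain barrier, rose most: it was at 8.13, 8.71 and 8.67 in Ly6C-high microglia, 6.42, 6.18 and 6.00 in the Ly6C-low arrays and 6.28, 6.10 and 6.01 in monocytes. Its log2 fold change was 2.30 ± 0.18 against Ly6C-low microglia (4.94-fold, limma adjusted p = 0.000114) and 2.37 ± 0.18 against monocytes (5.17-fold, 7.12e-05). Tnfrsf23, a mouse decoy receptor for TRAIL, was lower in Ly6C-high than in Ly6C-low microglia by -1.65 ± 0.25 (adjusted p = 0.00258). Against monocytes, 3 of the 24 were higher and 7 lower in the Ly6C-high cells, and 3 higher and 6 lower in Ly6C-low microglia. Over all genes 21.5% were called in the first of these comparisons and 14.5% in the second. Cd27, a receptor of lymphocytes, was lower in Ly6C-high microglia than in monocytes by -2.18 ± 0.23 (adjusted p = 0.000401). Tnfrsf4, which encodes OX40, was lower than in monocytes by -1.34 in Ly6C-high and -1.45 in Ly6C-low microglia. The B cell list means (8.53 to 9.21) and T and NK cell list means (7.40 to 8.22) of monocytes exceeded those of every microglia array. Their part in the Cd27 and Tnfrsf4 results, and in that of Traf1 below, was not tested.

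**Figure D3:**
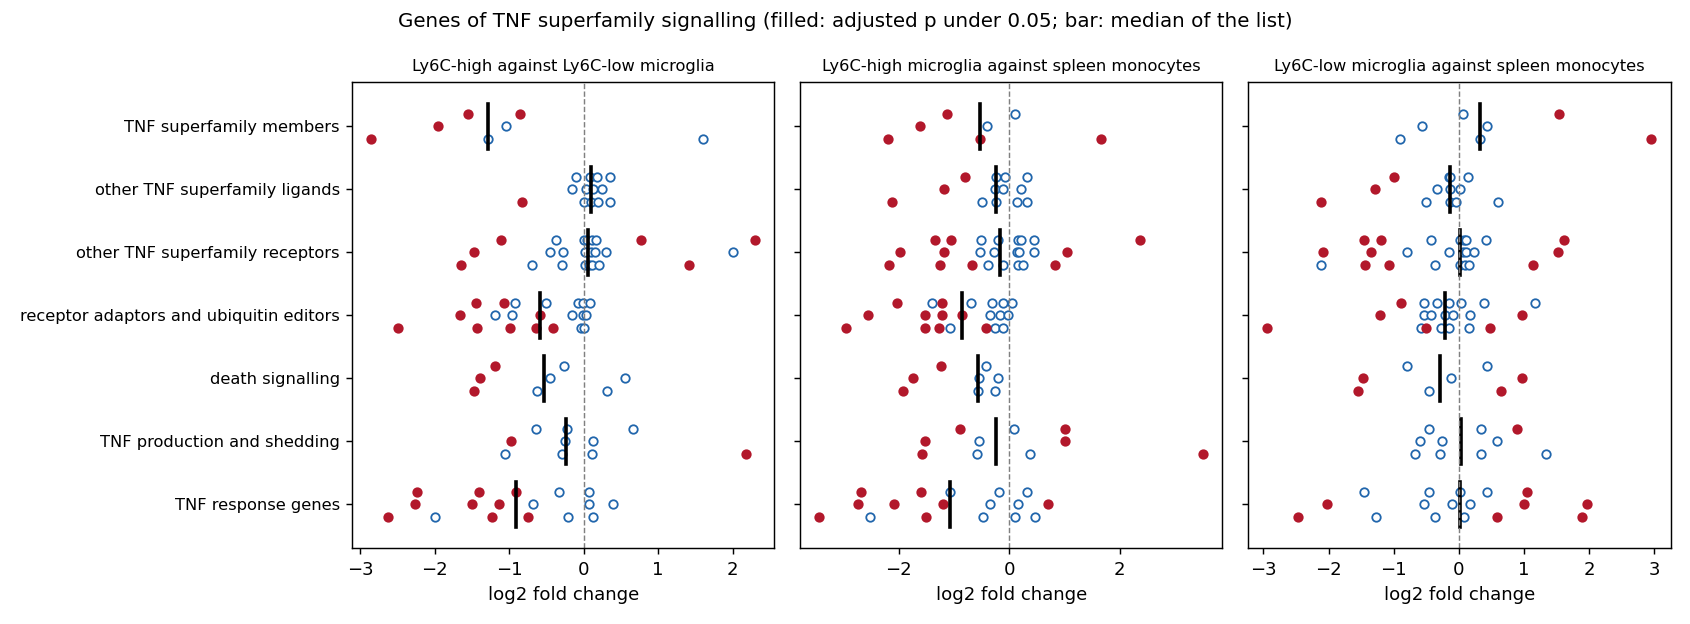
Log2 fold changes (x axis) of the measured genes of 7 lists in the 3 comparisons, with a point per gene, filled where it passed an adjusted p of 0.05, and a bar at each list's median. In Ly6C-high against Ly6C-low microglia, no called gene among the adaptors, death signalling genes or TNF response genes lies above 0.

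The next lists hold the signalling genes below the receptors. Of 21 measured adaptors and ubiquitin editors, 9 were lower and 0 higher than in Ly6C-low microglia (median -0.59), and 10 were lower and 0 higher than in monocytes (median -0.85). Over all genes 2185 of 19937 were lower and 4.49% higher in the first comparison, and 14.6% lower and 6.88% higher in the second. The first count was 5 without Ly6C-low replicate 2. Tnfaip3, which encodes A20, the NF-kB inhibitor that TNF itself induces, was at 9.22, 8.63 and 8.88 in Ly6C-high microglia, against 11.50, 11.36 and 11.36 in the Ly6C-low arrays and 10.11, 10.20 and 10.99 in monocytes. It was the lowest of the list in Ly6C-high against Ly6C-low microglia (-2.50 ± 0.24, 5.64-fold lower, limma adjusted p = 0.00028). The deubiquitinase Cyld (-1.66), the inhibitor of apoptosis Birc3 (-1.45) and the TAK1 partner Tab2 (-1.43, a call lost in 10 of 21 alternatives) followed. Against monocytes, Ly6C-high microglia were lowest in Traf1 (-2.95 ± 0.17, 7.72-fold, adjusted p = 1.87e-05), Cyld (-2.55), Birc3 (-2.03) and the kinase Map3k14 (-1.53), which drives the noncanonical NF-kB branch.

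In Ly6C-low microglia against monocytes 2 of the 21 were higher and 4 lower (median -0.22), beside 6.80% of all genes higher and 7.71% lower. Tnfaip3 was higher by 0.98 ± 0.24 (limma adjusted p = 0.0286, a call lost in 6 of 21 alternatives), while Traf1 (-2.94), the A20 partner Tnip1 (-1.22) and Cyld (-0.89, lost in 10 of 21) were lower. The count of 6 was 2 without Ly6C-low replicate 2 or 3 or monocyte replicate 2, and 3 without monocyte replicate 1.

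Of 8 measured death signalling genes 3 were lower and none higher in Ly6C-high than in Ly6C-low microglia (median -0.54), beside 15.4% of all genes called, of which 2185 genes of 19937 tested were lower. They were the kinase Map3k5, which encodes ASK1 (-1.47 ± 0.34, limma adjusted p = 0.0195, a call lost in 6 of 21 alternatives), the caspase-8 inhibitor Cflar (-1.39 ± 0.21, 0.0026) and Casp8 (-1.19 ± 0.18, 0.00227). Set against monocytes, the Ly6C-high cells were lower in Map3k5 (-1.93), the necroptosis kinase Ripk3 (-1.74) and the mitochondrial pore gene Bak1 (-1.24), and the count of 3 was 5 without Ly6C-high replicate 1. Ly6C-low microglia were lower than monocytes in Bak1 (-1.54) and Ripk3 (-1.47, lost in 10 of 21) and higher in Cflar (0.97) and Casp8 (0.65, lost in 13 of 21). That count of 4 was 1 without Ly6C-low replicate 1 or 3 and 2 without Ly6C-low replicate 2 or monocyte replicate 2 or 3. Over all genes, 21.5% were called against monocytes in Ly6C-high and 14.5% in Ly6C-low microglia.

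Genes of TNF production and release were mixed. Adam17 encodes the protease that sheds TNF and its receptors from the surface, and Timp3 encodes its tissue inhibitor. Timp3 was at 9.88, 10.35 and 10.73 in Ly6C-high microglia, 9.34, 8.13 and 6.97 in Ly6C-low replicates 1 to 3 and 6.65, 6.51 and 7.28 in monocytes. It was higher in Ly6C-high than in Ly6C-low microglia by 2.18 ± 0.53 (4.52-fold, limma adjusted p = 0.0255, lost in 6 of 21 alternatives) and than in monocytes by 3.51 ± 0.53 (11.4-fold, 0.00245). The brain endothelium list mean was 7.72 in Ly6C-low replicate 1, 6.96 in replicate 2 and 6.07 in replicate 3, and its part in the Timp3 result was not tested. Adam17 was at 7.04, 8.70 and 8.38 in Ly6C-high microglia, against 8.69, 9.33 and 9.28 in the Ly6C-low arrays and 9.55 to 9.57 in monocytes, and was called only as lower in Ly6C-high microglia than in monocytes (-1.52 ± 0.39, adjusted p = 0.0248, lost in 4 of 21).

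Of the 10 genes of this list 1 was higher and 1 lower in Ly6C-high than in Ly6C-low microglia, beside 15.4% of all genes called. The 2 genes were Timp3 and Litaf, which has been described as a regulator of TNF transcription. Litaf was the lower one (-0.98 ± 0.28, limma adjusted p = 0.0495, lost in 14 of 21 alternatives). The count of 2 was 5 without Ly6C-high replicate 2, 1 without Ly6C-high replicate 3 or any one monocyte array and 0 without Ly6C-low replicate 2 or 3. Against monocytes 3 were higher and 3 lower in Ly6C-high microglia, beside 6.88% of all genes higher and 14.6% lower. Zfp36l1, which binds AU-rich messenger RNA, was higher by 1.01 and Litaf lower by -1.57. In Ly6C-low microglia Zfp36l1 alone was called, higher by 0.89, beside 14.5% of all genes called. That count of 1 was 4 without Ly6C-high replicate 1, 2 without Ly6C-high replicate 3 or monocyte replicate 3 and 0 without Ly6C-low replicate 1 or 2 or monocyte replicate 1 or 2.

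Of 17 genes known to be induced by TNF, 9 were lower and 0 higher in Ly6C-high than in Ly6C-low microglia (median -0.91). Over all genes tested in that comparison, 2185 of 19937 were lower and 4.49% higher. Nfkbie, an NF-kB inhibitor, was at 6.20, 7.92 and 7.03 in Ly6C-high microglia, against 9.82, 9.51 and 9.71 in the Ly6C-low arrays and 9.77 to 9.79 in monocytes (log2 fold change against Ly6C-low -2.63 ± 0.36, 6.19-fold lower, limma adjusted p = 0.00156). The chemokines Cxcl10 (-2.27) and Ccl2 (-2.23) and the adhesion molecule Icam1 (-1.50) were also lower. Icam1 followed the order of Tnf, at 8.47, 8.96 and 9.04 in Ly6C-high microglia, 10.02, 10.52 and 10.44 in the Ly6C-low arrays and 8.31, 8.30 and 8.48 in monocytes.

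Against monocytes, 14.6% of all genes were lower and 6.88% higher in Ly6C-high microglia. Of the 17 genes, 7 were lower and 1 higher (median -1.07). Among them were Tnfaip2 (-3.44 ± 0.32, limma adjusted p = 0.000192), Nfkbie (-2.73), the adhesion molecule Vcam1 (-2.68) and Cxcl10 (-2.09). In Ly6C-low microglia 5 of the 17 were higher and 2 lower than in monocytes (median 0.02), beside 6.80% of all genes higher and 7.71% lower. Icam1 was higher by 1.96 ± 0.19 (limma adjusted p = 0.000209) and Ccl2 by 1.89 (lost in 6 of 21 alternatives), while Vcam1 (-2.47) and Tnfaip2 (-2.03) were lower. The count of 7 was 4 without Ly6C-low replicate 2 or 3 or monocyte replicate 1 or 2. Vcam1 and Icam1, both endothelial targets of TNF, thus stood in different orders across the groups.

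**Figure D4:**
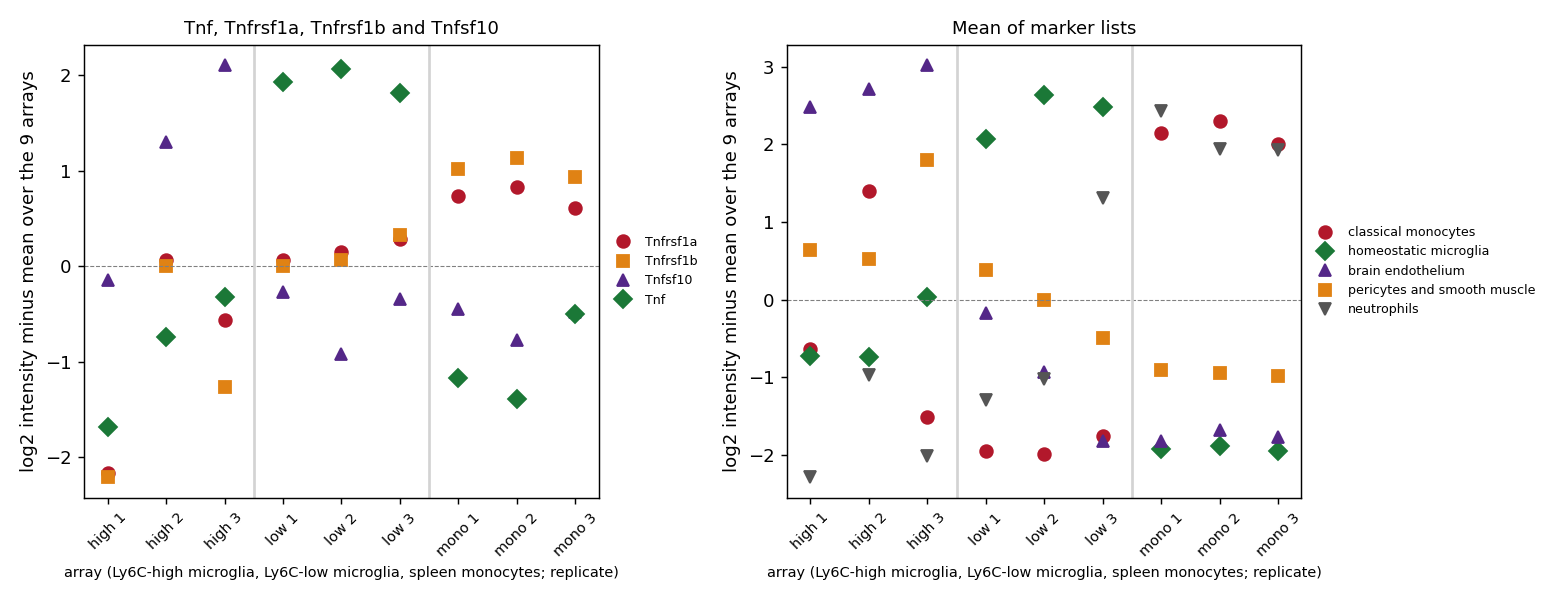
Log2 intensity minus its own mean over the 9 arrays (y axes) for Tnf, Tnfrsf1a, Tnfrsf1b and Tnfsf10 (left) and for the means of 5 marker lists (right), with a point per array and arrays in the order Ly6C-high, Ly6C-low and spleen monocytes. Tnfrsf1a and Tnfrsf1b in Ly6C-high replicate 2 lie near the Ly6C-low arrays, and the classical monocyte list is higher in that array than in the other Ly6C-high arrays. Ly6C-high replicate 3 lies above replicate 1 for both of these genes and below it for that list.

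Among 8712 genes that ranged over at least 1 log2 unit, apart from predicted and clone-based symbols, the genes most like each member over the 9 arrays were sought. Tnf was matched most closely by Frmd4a (Pearson r = 0.995) and Camk1 (0.991), both of which had their highest mean in Ly6C-low microglia: Frmd4a averaged 6.93 in Ly6C-high microglia, 9.88 in the Ly6C-low arrays and 6.80 in monocytes. Tnfrsf11a was closest to Trim36 (0.991) and Phka1 (0.989), and Tnfrsf21 to Prkdc (0.991) and Cep170 (0.986). Nsmce2 (0.995) and Ormdl2 (0.992) were closest to Tnfrsf1a, and Ptpn1 (0.991) and Nup98 (0.991) to Tnfrsf1b. The lowest best matches were those of Tnfsf13b, with Acp6 (0.974) and Idh2 (0.965), and of Tnfsf10, with Fmo1 (0.968) and Shroom2 (0.967). Fmo1 averaged 6.21 in Ly6C-high microglia, 5.48 in the Ly6C-low arrays and 5.33 in monocytes. The 9 arrays share 3 group means, and the coefficients are given as descriptions.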

How the data were processed

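Gene expression of 9 sorted cell samples was measured on Affymetrix whole-transcript arrays. The authors deposited log2 intensities of 34760 probe sets for every array. RMA and oligo are named without versions in the submitters' processing notes, and their settings and the array's build are not stated there. RMA compresses differences of dim genes. Values lay between 2.54 and 13.81 and array medians between 5.83 and 5.96.

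The platform annotation gives 21640 probe sets 1 symbol, 1321 several and 11799 none. The brightest probe set by mean over the 9 arrays stood for a gene (954 genes had several), which left 19937 genes. Members and lists were chosen with earlier results of these data known. Values were used as deposited. Group means were fitted over all 9 arrays with limma 3.58.1 in R 4.3.3 (lmFit, eBayes), two-sided, with p-values adjusted by Benjamini-Hochberg across the genes and called under 0.05, and every adjusted p is from limma. The small number of arrays limits precision. The code was tested on simulated data. Named are the members, up to 4 called genes per pathway list and comparison with the largest change, and the 2 genes most like each member. Alternatives covered normalization, filters, weights, blocks and left-out arrays.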

Additional observations from a re-analysis of the deposited data

How the results depend on the processing

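The deposited values and up to 21 alternatives gave 492 values for the 24 results of the 7 genes and the shared probe set: 411 kept direction and side of the threshold, 50 lost and 21 gained a call, and 10 changed sign. Calls of Tnf, Tnfrsf11a, Tnfrsf21 and Tnfsf13b in Ly6C-high against Ly6C-low microglia, and of Tnf and Tnfrsf11a in Ly6C-low microglia against monocytes, held in all 21. The count of members was 5 for Ly6C-high microglia against monocytes, 3 under quantile normalization, cyclic loess, median centring and with Ly6C-high replicate 2 left out along with Ly6C-low replicate 3, 2 with only the 6 arrays compared and over all probe sets, and 2 to 5 with 1 array left out. With array weights that count was 6, the highest of the alternatives. For Ly6C-high against Ly6C-low microglia the count was 4, and 4 to 6 over the alternatives. For Ly6C-low microglia against monocytes it was 2, with 4 for the 6 arrays, 5 with array weights and 2 to 3 with 1 array left out. Over all genes the counts were 3080 (2038 with 6 arrays, 1956 to 3888 with 1 array left out, 1956 without Ly6C-low replicate 3 and 2011 without replicate 2), 4290 (2505 to 6091, 2505 without monocyte replicate 1 and 2511 without replicate 2) and 2894 (4614 with 6 arrays, 5738 with array weights, 1864 to 3778, 1864 without monocyte replicate 1). The values that changed sign were all uncalled: Tnf in Ly6C-high microglia against monocytes (-0.19 to 0.49 with 1 array left out), Tnfsf10 in Ly6C-low microglia against monocytes (-0.03 under cyclic loess, -0.01 with array weights, -0.03 without both arrays, -0.06 to 0.26 with 1 left out) and the shared probe set in Ly6C-high microglia against monocytes (0.08 under quantile normalization, 0.10 under cyclic loess). The causes were not tested, and fewer arrays leave less power.

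For arrays with the same title number, correlations of their deviations from group means ran from -0.073 to 0.301 over the 9 pairs, and 3 of 9 arrays correlated best with their own number. With it as a replicate block, 3 members were called in Ly6C-high microglia against monocytes, and the other 2 counts of members were within 1.5 times. The descriptions carry other numbers, of which 8 and 11 occur in both microglia groups (r = 0.301 and 0.21), with no stated meaning. As a random block (consensus correlation 0.294) they gave 4, 4 and 2 called members, and the Tnfsf10 call against monocytes in Ly6C-high microglia was lost (adjusted p = 0.0549).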
